A study of Mus musculus with 8 samples.

Results

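The genes described here make up the antioxidant and redox defence of the left ventricle: enzymes that remove superoxide and peroxides, the thioredoxin and glutathione systems, the NRF2 switch and its targets, metallothioneins, flavin monooxygenases and the enzymes that produce oxidants. The genes were chosen by symbol for these functions, and all 45 were found once each among the 49671 genes of the deposited table and were kept by the filter on low values (1 or more in 2 or more libraries), which left 16432 genes. Polyadenylated RNA was sequenced in 8 libraries from male C57BL/6N mice, aged 8 weeks at the start, 4 weeks after surgery. The surgery was either sham or TAC (transverse aortic constriction), which narrows the aorta and so loads the left ventricle with pressure. One diet, SFA, was low in fat, and in the other, SFA-EAA, free essential amino acids stood in for 93.5% of the casein. The 4 groups, sham SFA, TAC SFA, sham SFA-EAA and TAC SFA-EAA, had 2 libraries each, and the labels name no transgene or drug. No label ties the libraries of a group to separate animals, and p-values then reflect only the spread among these libraries, which may be technical.

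Superoxide leaks from the respiratory chain or is made by NADPH oxidases, and superoxide dismutases turn it into hydrogen peroxide. Catalase, glutathione peroxidases and peroxiredoxins remove the peroxide. The glutathione peroxidases and peroxiredoxins draw electrons from glutathione or thioredoxin, which their reductases recharge with NADPH. The transcription factor NRF2, encoded by Nfe2l2, is held back by KEAP1 until oxidants or electrophiles release it, and then binds antioxidant response elements in front of many of these genes. Cardiac muscle is rich in mitochondria, so the mitochondrial enzymes of this defence are abundant there.

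The deposited values are normalized counts, whose library totals ran from 5136441 to 6298743. Cardiomyocyte markers were abundant in every library (all 10 tested, none at 0), as the label of left ventricle calls for. Several properties differed among the libraries, in part between groups and in part within them. Genes rich in G and C were relatively low in both sham SFA-EAA libraries and in TAC SFA-EAA replicate 2, and relatively high in the other 5 libraries, TAC SFA-EAA replicate 1 included. Myl7, a myosin light chain of the atria, was highest in the first sham SFA library (621) and the second TAC SFA library (322), while the other 6 had no more than 43.0. Mitochondrially encoded genes made up 27.7% and 22.1% of the total in TAC SFA, 29.2% and 30.3% in sham SFA, and 33.6% to 39.5% in the 4 SFA-EAA libraries.

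The promoters of 4 genes are shown. Nox4 and Gstk1 are the genes called for TAC under SFA. The neighbouring metallothionein genes Mt1 and Mt2 were not called, but Mt2 stood far higher in a single library. No part of these promoters in the measured differences was tested. Each promoter is the stretch of 250 bases before the RefSeq start on GRCm38.p6, 5′ to 3′ along the gene. For Nox4 the RefSeq start differs from the deposited gene start, and the stretch shown lies inside the deposited gene. Capitals mark matches to the metal response element (TGCNCNC on either strand).
Nox4 (chr7:87246399-87246648, plus strand): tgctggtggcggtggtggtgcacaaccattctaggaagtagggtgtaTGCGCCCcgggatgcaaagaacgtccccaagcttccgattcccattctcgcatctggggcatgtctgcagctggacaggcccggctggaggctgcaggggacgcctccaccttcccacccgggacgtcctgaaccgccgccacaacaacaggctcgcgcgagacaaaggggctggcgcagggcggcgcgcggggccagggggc
Gstk1 (chr6:42245685-42245934, plus strand): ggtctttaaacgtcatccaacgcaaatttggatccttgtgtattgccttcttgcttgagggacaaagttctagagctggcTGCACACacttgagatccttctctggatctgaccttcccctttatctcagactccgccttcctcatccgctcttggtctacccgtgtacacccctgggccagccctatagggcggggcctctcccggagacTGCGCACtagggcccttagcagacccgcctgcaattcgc
Mt1 (chr8:94178839-94179088, plus strand): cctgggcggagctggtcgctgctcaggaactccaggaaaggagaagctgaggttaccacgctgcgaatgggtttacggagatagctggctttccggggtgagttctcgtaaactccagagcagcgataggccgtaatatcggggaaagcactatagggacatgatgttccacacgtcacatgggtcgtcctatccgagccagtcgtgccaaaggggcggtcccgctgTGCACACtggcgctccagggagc
Mt2 (chr8:94172368-94172617, plus strand): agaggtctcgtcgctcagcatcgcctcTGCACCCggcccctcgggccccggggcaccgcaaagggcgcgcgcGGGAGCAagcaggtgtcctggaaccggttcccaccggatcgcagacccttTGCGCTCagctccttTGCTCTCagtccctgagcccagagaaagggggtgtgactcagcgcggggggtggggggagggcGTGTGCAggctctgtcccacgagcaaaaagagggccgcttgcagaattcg
Within these stretches Mt2 held 5 such matches, Gstk1 2, and Mt1 and Nox4 1 each. Bases past the RefSeq start were not searched. At least 1 match was found for 16 of the 38 listed genes with a RefSeq promoter, or 42.1%, against 47.2% of 27025 genes. These letters are short and common, and a match is not a binding site.

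Matches to the antioxidant response element (TGACNNNGC on either strand) are shown next, since that is the sequence NRF2 is known to read. Of the 38 genes with a promoter, 8 had at least 1 match in the same window (21.1%), against 11.5% of all genes with a promoter. Each is printed with the 10 bases on both sides, and capitals mark the match.
Gclm: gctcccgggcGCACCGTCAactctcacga
Mgst1: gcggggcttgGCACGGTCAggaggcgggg
Mt2: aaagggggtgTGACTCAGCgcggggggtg
Nfe2l2: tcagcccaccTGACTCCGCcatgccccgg
Prdx1: cagggaaagcGCTGAGTCAtcccccgtag
Sod1: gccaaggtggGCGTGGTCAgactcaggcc
Txnrd1: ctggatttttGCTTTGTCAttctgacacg
Ucp2: ccctggctccGCCTCGTCAcgccacgccc
None of these 8 genes passed the test in any of the 7 comparisons of the deposited values (limma, adjusted over 16432 genes). For Mgst1 and Txnrd1 the match lay in only 1 of several RefSeq promoters. The glucocorticoid response element (GNACA and TGTNC 3 bases apart, both strands) matched the promoter of Mt1 alone, at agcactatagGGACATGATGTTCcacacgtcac, and 0.440% of all genes.

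The level of the genes was compared per kilobase of the gene length in the deposited table. Cytosolic superoxide dismutase, Sod1, stood highest with a mean of 1501 normalized counts per kb over the 8 libraries, followed by Gpx4, which reduces lipid hydroperoxides in membranes, at 1234. Next came the mitochondrial peroxiredoxin Prdx3 at 1089.5 and the membrane-bound glutathione transferase Mgst3 at 1050.2. At the other end stood Nox4, an NADPH oxidase that releases hydrogen peroxide, at 2.10 per kb, and Cybb, the phagocyte oxidase subunit, at 7.05. The enzymes of glutathione synthesis were also low, with Gclc at 14.7, Gss at 14.0 and Gclm at 17.7 per kb. Neighbours in this order mostly could not be told apart, since the ranges over the libraries overlapped in 43 of 44 neighbouring pairs; the pair that did not was Txnrd1 above Keap1.

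**Figure D1:**
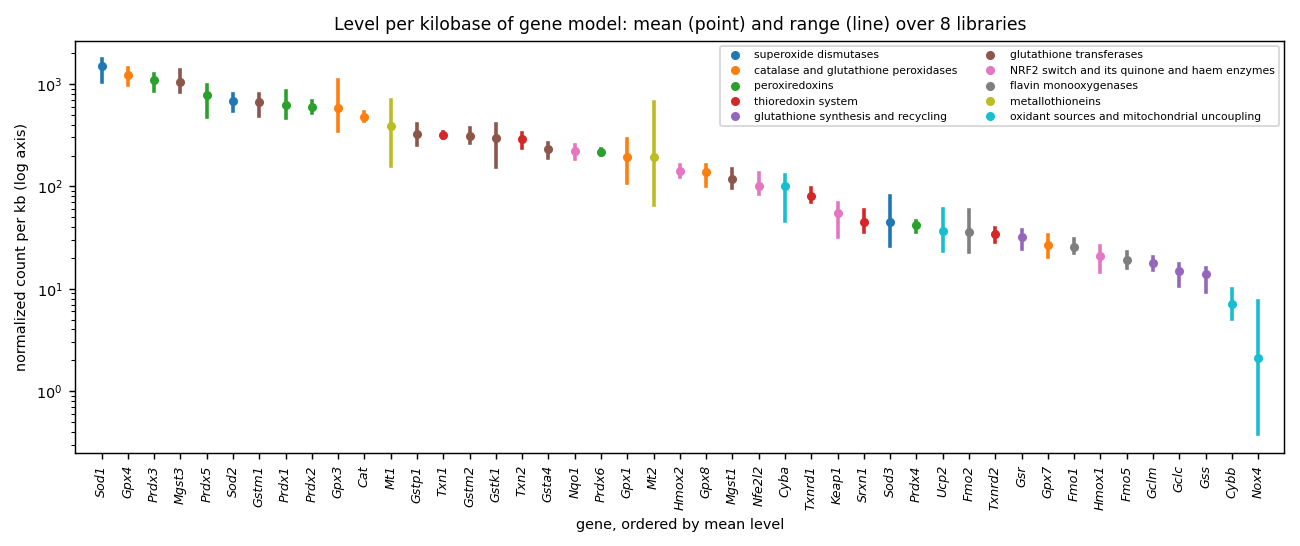
Normalized counts per kilobase of deposited gene length (vertical log axis) of the 45 genes in order of their mean (horizontal axis), with points at the mean and lines over the range of the 8 libraries, coloured by role. Sod1 stands highest at 1501 per kb and Nox4 lowest at 2.10, with the widest range.

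Most of the genes varied little. The highest library was less than 2 times the lowest for 33 of the 45 genes, and at least 2 times for 12. Nox4 had the widest span at 19.9 times, followed by Mt2 at 10.3, Mt1 at 4.37, Gpx3 at 3.17 and Sod3 at 3.05. Txn1, the cytosolic thioredoxin, and Prdx6 spanned 1.13 and 1.14 times.

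The first comparison asked how pressure overload changed these genes under the SFA diet. An oxidant-producing enzyme rose and a glutathione transferase fell, while no superoxide dismutase, peroxidase, peroxiredoxin, thioredoxin or NRF2 switch gene passed the test. Nox4 rose 8.93-fold and Gstk1 fell 1.89-fold. Thus 1 of 45 genes was higher and 1 lower at an adjusted p under 0.05, against 0.834% and 0.414% of all 16432 genes, so that each count rests on a single gene. Of the 45, 25 had a positive and 20 a negative log2 fold change, with a median of 0.06 beside 0.01 for all genes tested. The TAC and sham libraries did not overlap for 13 genes that were higher and 16 that were lower, against 24.3% and 23.1% of all genes. After GC correction 3 rose (Nox4, Mt2 and Gpx3) and 3 fell (Gstk1, Gstm1 and Gstp1), against 2.56% and 2.47% of all genes. Both calls on the deposited values were lost without any 1 of 3 libraries, which were both sham SFA libraries and TAC SFA replicate 2, and without the pair of libraries high in Myl7.

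**Figure D2:**
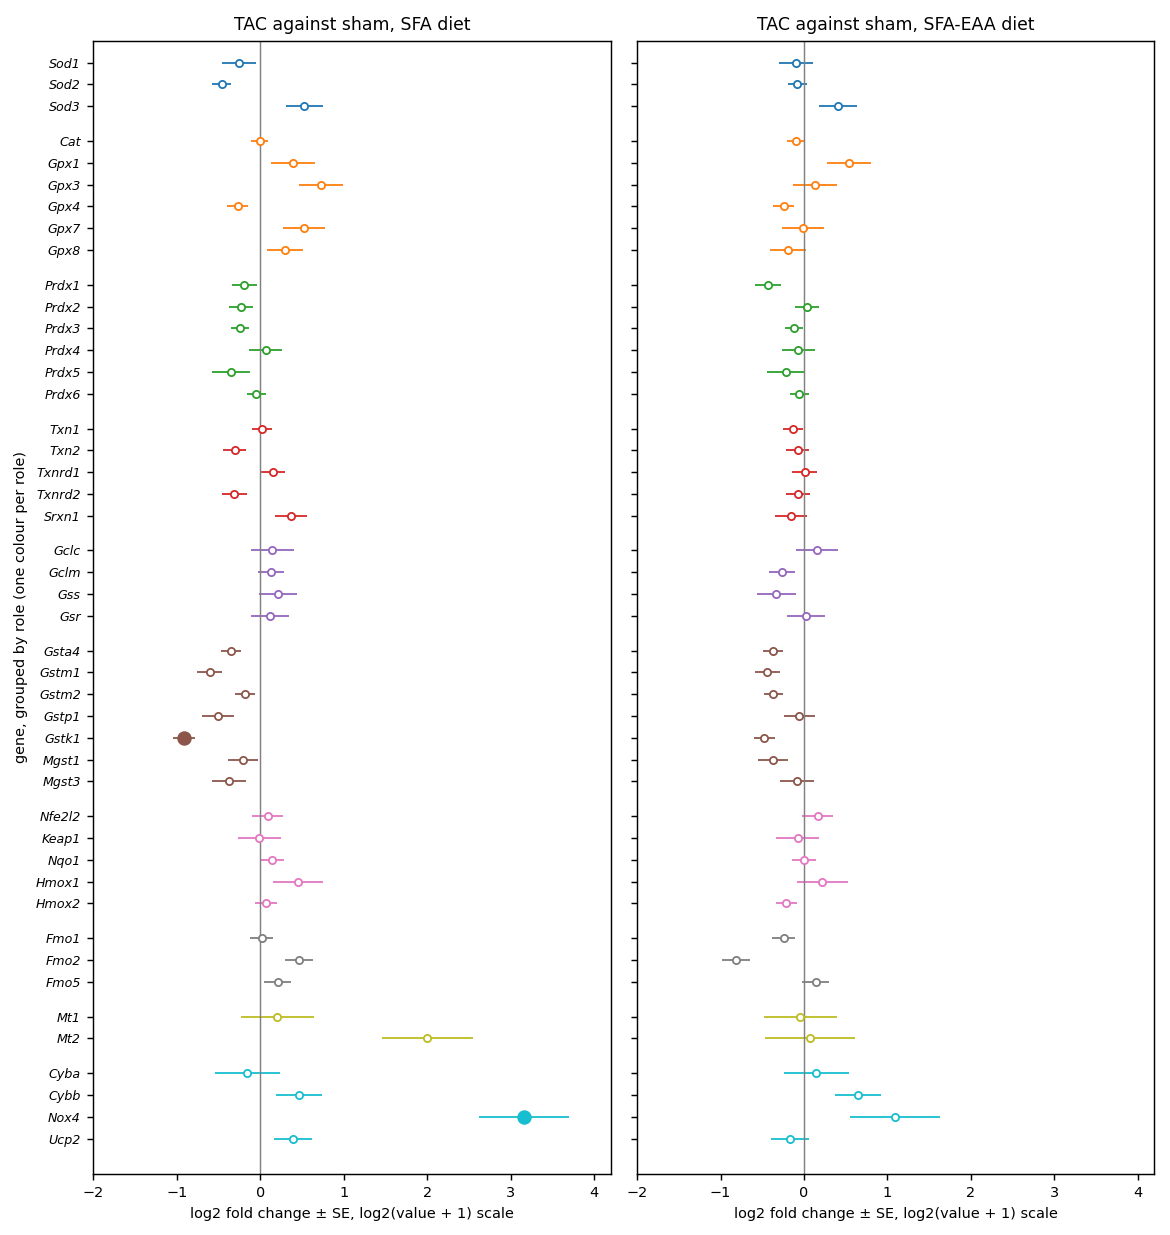
Log2 fold change of TAC against sham (horizontal axis, log2(value + 1) scale, bars ± SE, 2 libraries per group) for the 45 genes grouped by role (vertical axis), under SFA (left) and SFA-EAA (right). Filled points have an adjusted p under 0.05: Nox4 at 3.16 and Gstk1 at -0.92 under SFA, and none under SFA-EAA.

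Among the sources of oxidants, Nox4 (ENSMUSG00000030562, chromosome 7, 87246096 to 87398710, GRCm38) stood at 3.24 and 4.50 in sham SFA, 27.4 and 64.5 in TAC SFA, 5.05 and 7.11 in sham SFA-EAA and 21.5 and 8.87 in TAC SFA-EAA. Both TAC SFA libraries lay above every other library, and both TAC SFA-EAA libraries lay above all 4 sham libraries. The rise under SFA, from 3.87 ± 0.894 to 46.0 ± 26.3 (SD, n = 2 libraries per group), had a log2 fold change of 3.16 (SE 0.54, limma adjusted p = 0.0319). Sham values of a few normalized counts rest on few reads, and the pseudocount of 1 damps their fold. Without TAC SFA replicate 2, the library with the highest Nox4, the log2 fold change was 2.56 (limma adjusted p = 0.320), and without TAC SFA replicate 1 it was 3.76 (adjusted p = 0.0712). Among the 8 libraries left out in turn, the call held only without either TAC SFA-EAA library, and it was lost without a filter beyond a value above 0 (limma adjusted p = 0.107).

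Fibroblast markers, like Nox4, were higher in TAC SFA than in sham SFA. All 10 of the list were tested and none was at 0, and 3 rose under SFA, against 0.834% of all genes. The summed level of the 10 was 6405 and 5413 in sham SFA, 10927 and 15702 in TAC SFA, 5621 and 4869 in sham SFA-EAA and 5618 and 7224 in TAC SFA-EAA. The summed level was thus highest in TAC SFA replicate 2, as was Nox4, but within TAC SFA-EAA the order was the reverse. TAC SFA-EAA replicate 1, with the higher Nox4 of that group, had a fibroblast sum within the range of sham SFA-EAA. The part of these cells in the result was not tested, and in bulk tissue a change in the number of cells of a type cannot be told apart from a change in RNA per cell.

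The other genes of this role did not pass. Cyba, which encodes the membrane subunit that Nox4 and the phagocyte oxidase share, stood at 135 and 130.3 in sham SFA, 129 and 109 in TAC SFA, 64.5 and 81.1 in sham SFA-EAA and 134 and 47.9 in TAC SFA-EAA. It was lowest in TAC SFA-EAA replicate 2 and the sham SFA-EAA libraries, the 3 low in GC-rich genes, and had a log2 fold change under SFA of -0.16 (limma adjusted p = 0.924). Cybb, the catalytic subunit of the phagocyte oxidase, stood at 38.9 and 29.2 in sham SFA, 57.2 and 38.2 in TAC SFA, 33.8 and 29.6 in sham SFA-EAA and 53.4 and 47.1 in TAC SFA-EAA. Its TAC libraries lay above the sham libraries under SFA-EAA and overlapped them under SFA, with log2 fold changes of 0.65 and 0.46 (limma adjusted p = 0.569 and 0.544). Macrophage and myeloid markers, all 14 tested with none at 0, summed to 1852 and 1388 in sham SFA, 2420.2 and 2075 in TAC SFA, 1287 and 1403 in sham SFA-EAA and 1917 and 2405 in TAC SFA-EAA, and their part in the Cybb values was not tested. Ucp2, a carrier of the inner mitochondrial membrane, stood at 336 and 222 in sham SFA, 421 and 303 in TAC SFA, 201 and 208 in sham SFA-EAA and 205 and 163 in TAC SFA-EAA. It was highest in TAC SFA replicate 1 (0.39 under SFA, limma adjusted p = 0.529).

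The glutathione transferases attach glutathione to reactive lipid products and other electrophiles. All 7 had a negative log2 fold change under SFA, with a median of -0.38, and TAC lay below sham with no overlap for 6 of them, against 23.1% of all genes. Gstk1 (ENSMUSG00000029864, chromosome 6, 42245935 to 42250447), the kappa class enzyme of mitochondria and peroxisomes, stood at 481 and 462 in sham SFA, 274 and 227 in TAC SFA, 596 and 569 in sham SFA-EAA and 433 and 406 in TAC SFA-EAA. The TAC libraries lay below the sham libraries under each diet, and those of TAC SFA were the lowest of all. Under SFA it fell from 472 ± 13.3 to 251 ± 33.3 (log2 fold change -0.92, SE 0.13, limma adjusted p = 0.0150). Leaving out the first or second sham SFA library gave an adjusted p of 0.166 or 0.187 (limma), and leaving out the second TAC SFA library 0.172.

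Gstm1 (ENSMUSG00000058135, chromosome 3, 108012255 to 108017973), a cytosolic mu class enzyme, stood at 1126 and 1183 in sham SFA, 711 and 806 in TAC SFA, 1124 and 1178 in sham SFA-EAA and 988 and 728 in TAC SFA-EAA. The TAC SFA libraries lay below all 4 sham libraries, as did both TAC SFA-EAA libraries, and its log2 fold change under SFA was -0.61 (limma adjusted p = 0.102, and 0.00444 after GC correction). Gsta4, which acts on the lipid aldehyde hydroxynonenal, stood at 329 and 321 in sham SFA, 271 and 238 in TAC SFA, 333 and 337 in sham SFA-EAA and 264 and 255 in TAC SFA-EAA. Its 4 TAC libraries lay below the 4 sham libraries, with a log2 fold change under SFA of -0.35 (limma adjusted p = 0.239). Gstp1, of the pi class, stood at 306 and 287 in sham SFA, 221 and 195 in TAC SFA, 214 and 265 in sham SFA-EAA and 274 and 192 in TAC SFA-EAA. Both TAC SFA libraries lay below sham SFA (-0.51, limma adjusted p = 0.279, and 0.0436 after GC correction). Mgst3 and Mgst1 had log2 fold changes of -0.38 and -0.20 under SFA, neither of which passed. Gstm2, of the mu class, stood at 565 and 538 in sham SFA, 509.6 and 463 in TAC SFA, 564 and 617 in sham SFA-EAA and 449 and 465 in TAC SFA-EAA. Here too the 4 TAC libraries lay below the 4 sham libraries, with -0.18 under SFA (limma adjusted p = 0.565). Sequences of the mu class genes, and of Gstp1 and Gstp2, are close to each other, so reads may have been exchanged between them.

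Markers of cardiomyocytes and adipocytes also lay mostly lower in TAC SFA than in sham SFA. Of 10 cardiomyocyte markers, 8 had a negative log2 fold change under SFA, with a median of -0.22, and 5 under SFA-EAA, with a median of -0.02. Their summed level was 460020.0 and 463708 in sham SFA, 392570.0 and 420244 in TAC SFA, 394659 and 414556 in sham SFA-EAA and 465907 and 359522 in TAC SFA-EAA. All 6 tested adipocyte markers were negative under each diet (medians -0.53 and -1.67, none passing), and their sums were 2699.8 and 2427 in sham SFA, 2585 and 1605 in TAC SFA, 3797 and 3617 in sham SFA-EAA and 2427 and 2948 in TAC SFA-EAA, with Lep and Ucp1 below 1 in every library. The mitochondrial share was lowest in TAC SFA, where Gstk1 was lowest, and highest in TAC SFA-EAA replicate 2. The part of these cells and of the mitochondrial share in the Gstk1 and transferase values was not tested.

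A further list of glutathione and glutathione transferase genes outside the 45 was taken beside these. Of its 24 tested genes, 17 had a negative log2 fold change under SFA, 1 fell and 0 rose, with a median of -0.28. The gene that fell was Gstm7, another mu class enzyme, at 249 and 257 in sham SFA, 137 and 156 in TAC SFA, 299.6 and 299 in sham SFA-EAA and 206 and 193 in TAC SFA-EAA (log2 fold change -0.79, limma adjusted p = 0.0294). Gstt1, a theta class enzyme, stood at 79.2 and 79.8 in sham SFA, 24.5 and 39.5 in TAC SFA, 72.5 and 78.6 in sham SFA-EAA and 50.2 and 39.5 in TAC SFA-EAA, with a log2 fold change of -1.32 that narrowly missed the threshold (limma adjusted p = 0.0512).

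Metallothioneins are small cysteine-rich proteins that bind zinc and copper and can take up oxidants. Mt2 (ENSMUSG00000031762, chromosome 8, 94172664 to 94173568) stood at 38.2 and 91.3 in sham SFA, 395 and 145 in TAC SFA, 59.8 and 51.6 in sham SFA-EAA and 86.1 and 39.6 in TAC SFA-EAA. TAC SFA replicate 1 had 395, far above every other library, and both TAC SFA libraries lay above the rest. The log2 fold change under SFA was 2.0 (SE 0.54) and did not pass (limma adjusted p = 0.130), though it passed after GC correction (adjusted p = 0.0286). Without TAC SFA replicate 1 it was 1.28. Its neighbour Mt1 stood at 543 and 537 in sham SFA, 863 and 449 in TAC SFA, 294 and 399.6 in sham SFA-EAA and 561 and 197 in TAC SFA-EAA, also highest in TAC SFA replicate 1, but the TAC SFA and sham SFA libraries overlapped (0.20, limma adjusted p = 0.911).

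Glucocorticoid-responsive genes, which also include the metallothioneins in many tissues, were highest in the same library. The 8 genes of the list, all tested, summed to 3892 and 3050.5 in sham SFA, 5921 and 3723 in TAC SFA, 3739 and 5214 in sham SFA-EAA and 3371 and 3564 in TAC SFA-EAA. The second-highest sum was in sham SFA-EAA replicate 2, where Mt2 was lower than in either TAC SFA library. Of the 8 genes, 6 had a positive and 2 a negative log2 fold change under SFA, with a median of 0.25. The 2 that rose, against 0.834% of all genes, included Fkbp5, a cochaperone of the glucocorticoid receptor. Fkbp5 stood at 165 and 108 in sham SFA, 635 and 324 in TAC SFA, 317 and 252 in sham SFA-EAA and 164 and 227 in TAC SFA-EAA. Both TAC SFA libraries lay above sham SFA (log2 fold change 1.76, limma adjusted p = 0.0414). Neither metallothionein is on that list, and the part of its regulation in the Mt2 values was not tested.

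Superoxide dismutases did not pass under SFA. Sod2, the mitochondrial enzyme, stood at 3049 and 2849 in sham SFA, 2175 and 2099.6 in TAC SFA, 2739 and 2789 in sham SFA-EAA and 2789 and 2452 in TAC SFA-EAA. Its TAC SFA libraries were the lowest of all 8, with a log2 fold change of -0.46 (limma adjusted p = 0.0941). Sod3, the extracellular enzyme, stood at 183 and 176 in sham SFA, 226 and 297 in TAC SFA, 98.9 and 97.6 in sham SFA-EAA and 164 and 104 in TAC SFA-EAA. It was highest in the TAC SFA libraries (0.53, limma adjusted p = 0.346). Sod1 stood at 1111 and 1121 in sham SFA, 984 and 885 in TAC SFA, 893 and 972 in sham SFA-EAA and 1119 and 675 in TAC SFA-EAA, with its TAC SFA libraries below sham SFA (-0.26, limma adjusted p = 0.680).

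Among peroxide-removing enzymes, Gpx3, the secreted glutathione peroxidase, stood at 1137 and 832 in sham SFA, 1314 and 1973 in TAC SFA, 771 and 690.2 in sham SFA-EAA and 1028 and 622 in TAC SFA-EAA. Both TAC SFA libraries lay above the sham SFA libraries, and within each SFA group the higher library was the one with high Myl7. The log2 fold change under SFA was 0.73 (limma adjusted p = 0.267, and 0.0420 after GC correction), and it was 0.66 without those 2 libraries. Gpx1, the abundant cytosolic and mitochondrial form, stood at 318 and 278 in sham SFA, 363 and 419.7 in TAC SFA, 156 and 191 in sham SFA-EAA and 347 and 181 in TAC SFA-EAA, higher in TAC than in sham SFA without overlap (0.39, limma adjusted p = 0.611). Red blood cells are rich in Gpx1, and erythroid markers, all 8 tested with none at 0, summed to 2606 and 2675 in sham SFA, 3357 and 3700.2 in TAC SFA, 1682 and 2105 in sham SFA-EAA and 3926 and 1169.6 in TAC SFA-EAA. Their sum, like Gpx1, was highest in both TAC SFA libraries and TAC SFA-EAA replicate 1, and their part in the Gpx1 values was not tested. Catalase, Cat, stood at 1189 and 1160.2 in sham SFA, 1123 and 1219.6 in TAC SFA, 1370.5 and 1387 in sham SFA-EAA and 1306 and 1273 in TAC SFA-EAA. Its libraries lay close together, and it had a log2 fold change of -0.00487 with a 95% interval of -0.24 to 0.23. Gpx7 and Gpx8 of the endoplasmic reticulum had 0.52 and 0.29, and Gpx4 had -0.27, none of which passed.

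Peroxiredoxins had small differences under SFA, and 5 of 6 log2 fold changes were negative. The mitochondrial form Prdx5 stood at 1965 and 2098 in sham SFA, 1605 and 1579 in TAC SFA, 1569 and 1662 in sham SFA-EAA and 1871 and 1027 in TAC SFA-EAA. It was lowest in TAC SFA-EAA replicate 2, and it and Prdx3, also mitochondrial, had -0.35 and -0.25 under SFA (limma adjusted p = 0.587 and 0.364). Cytosolic Prdx1 and Prdx2 had -0.19 and -0.23, Prdx6, which reduces phospholipid hydroperoxides, -0.05, and Prdx4 of the endoplasmic reticulum 0.06. In the thioredoxin system the mitochondrial pair Txn2 and Txnrd2 had -0.31 and -0.31, and cytosolic Txn1 had 0.02. Txnrd1, the cytosolic reductase and an NRF2 target, stood at 298 and 255 in sham SFA, 332 and 281 in TAC SFA, 239 and 272 in sham SFA-EAA and 251 and 261 in TAC SFA-EAA. Its groups overlapped under SFA (0.15, 95% interval -0.18 to 0.48). Srxn1, sulfiredoxin, restores overoxidized peroxiredoxins and stood at 126 and 101 in sham SFA, 128 and 165 in TAC SFA, 127 and 137 in sham SFA-EAA and 109 and 129 in TAC SFA-EAA. Its log2 fold change under SFA was 0.36 (-0.07 to 0.80). None of these 11 genes passed.

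The NRF2 switch and its classical targets did not pass. Nfe2l2 stood at 368 and 320.0 in sham SFA, 386 and 344 in TAC SFA, 415 and 352 in sham SFA-EAA and 355 and 516 in TAC SFA-EAA, with a log2 fold change under SFA of 0.09 and a 95% interval of -0.33 to 0.51. Keap1, its inhibitor, stood at 278 and 320.2 in sham SFA, 276 and 317 in TAC SFA, 222 and 212 in sham SFA-EAA and 285 and 149 in TAC SFA-EAA (-0.01, interval -0.59 to 0.57). Nqo1, a quinone reductase and standard NRF2 target, stood at 286 and 334 in sham SFA, 330.1 and 351 in TAC SFA, 394 and 339 in sham SFA-EAA and 338 and 396 in TAC SFA-EAA (0.14, interval -0.19 to 0.46). The haem oxygenase Hmox1 stood at 33.6 and 29.3 in sham SFA, 42.7 and 43.9 in TAC SFA, 25.7 and 38.5 in sham SFA-EAA and 29.8 and 45.5 in TAC SFA-EAA, and its TAC SFA libraries lay above sham SFA (0.45, limma adjusted p = 0.606). Hmox2, the constitutive form, ranged from 272 to 356 over the libraries, with 0.07 under SFA.

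None of the 4 genes of glutathione synthesis and recycling passed. Gclc, the catalytic subunit of the rate-limiting ligase, stood at 48.9 and 56.9 in sham SFA, 60.8 and 56.2 in TAC SFA, 65.6 and 40.3 in sham SFA-EAA and 58.5 and 56.4 in TAC SFA-EAA, and its log2 fold change under SFA was 0.15 with an interval of -0.44 to 0.73. Gclm, the modifier subunit, stood at 96.4 and 105 in sham SFA, 115 and 105 in TAC SFA, 129 and 129 in sham SFA-EAA and 106 and 108 in TAC SFA-EAA. It was highest in the sham SFA-EAA libraries and had 0.13 under SFA (-0.22 to 0.47). Glutathione synthetase Gss had 0.22 and glutathione reductase Gsr 0.12. Among 27 tested genes on a further list of NRF2 partners and targets, 19 had a positive log2 fold change under SFA and 0 passed, with a median of 0.18. Slc7a11, the cystine importer and a strong NRF2 target, was listed at 0 in all 8 libraries.

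Of the further lists of redox genes, 1 of 16 tested oxidase genes fell under SFA. It was Maob, the monoamine oxidase that makes hydrogen peroxide at the outer mitochondrial membrane, at 264 and 309 in sham SFA, 154 and 175 in TAC SFA, 413 and 399.9 in sham SFA-EAA and 250.3 and 276 in TAC SFA-EAA (log2 fold change -0.80, limma adjusted p = 0.0337). The oxidase organizer subunit Ncf1 stood at 25.1 and 21.1 in sham SFA and 46.7 and 28.7 in TAC SFA (0.65, limma adjusted p = 0.525). None of 21 glutaredoxin, methionine sulfoxide reductase and selenoprotein genes passed, none of 19 for mitochondrial NADPH supply, uncoupling and stress sensing, and none of 5 further flavin monooxygenase and metallothionein-linked genes.

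**Figure D3:**
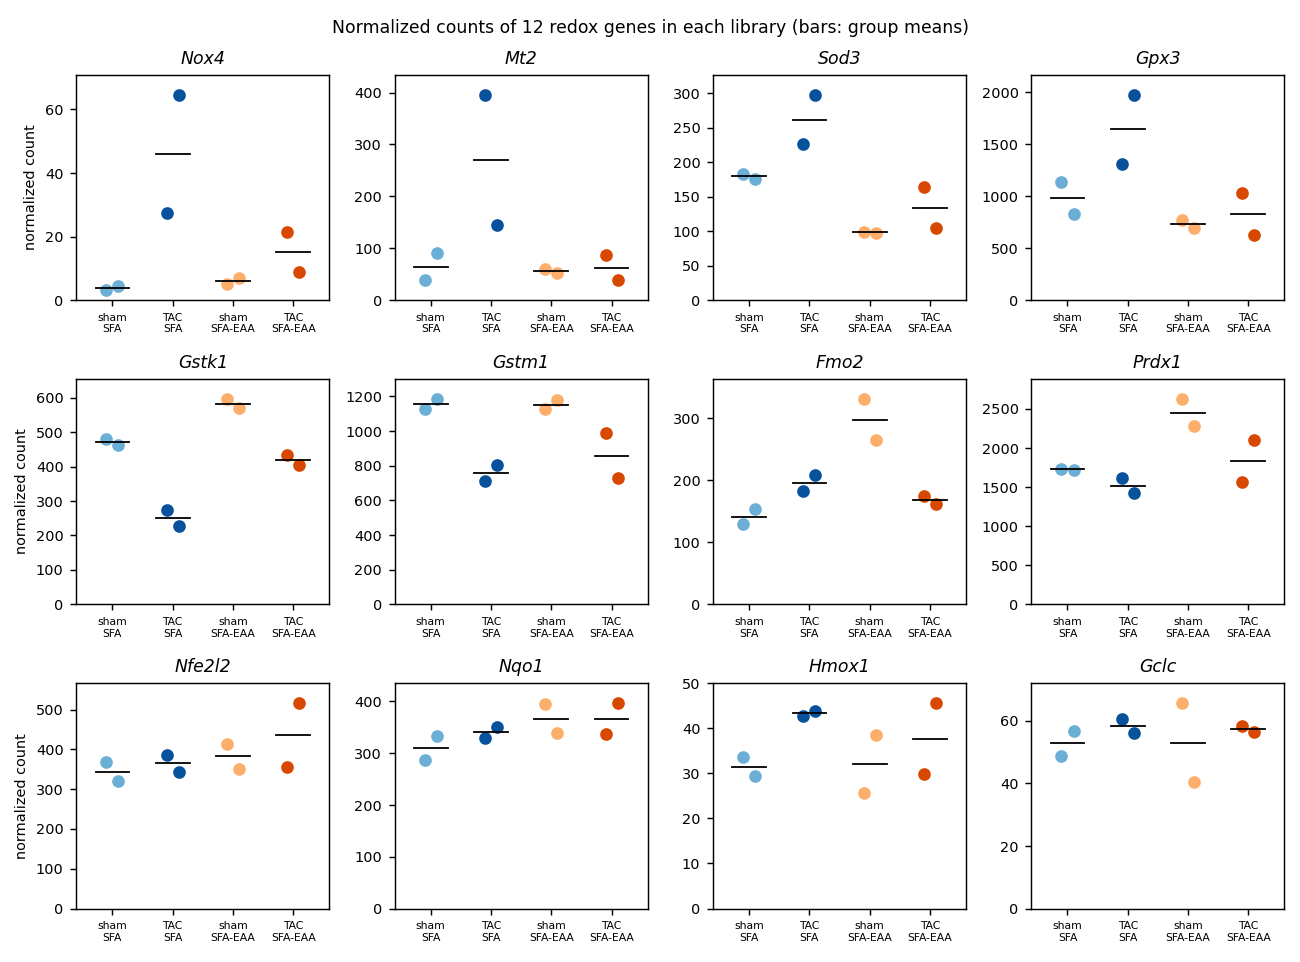
Normalized counts (vertical axes from 0) of 12 genes by group (horizontal axis), with a point for each of the 2 libraries and a bar at their mean. Nox4 and Mt2 are highest in TAC SFA, Gstk1 is lowest there, Fmo2 is highest in sham SFA-EAA, and Nfe2l2 and Gclc overlap between groups. Nqo1 overlaps between TAC and sham under each diet, but its sham SFA libraries lie below both SFA-EAA groups.

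Next, TAC was compared with sham under the SFA-EAA diet. None of the 45 genes passed (limma), against 0.0122% of all genes. At an unadjusted p under 0.05, 1 was higher and 6 were lower, against 4.86% and 3.71%. Without overlap between the groups, 4 of the 45 were higher and 14 lower, against 18.5% and 18% of all genes. The glutathione transferases again had negative log2 fold changes, 7 of 7, with a median of -0.37, and TAC lay below sham with no overlap for 5. Gstk1 had -0.47 (SE 0.13, limma adjusted p = 0.390), Gstm2 -0.37, Gsta4 -0.37 and Gstm1 -0.44. Over all 45 genes, 30 log2 fold changes were negative, with a median of -0.08 beside a median near 0 for all genes. Nox4 was 2.13-fold higher in TAC (limma adjusted p = 0.619).

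The smallest p-value under SFA-EAA belonged to Fmo2 (ENSMUSG00000040170, chromosome 1, 162874317 to 162898726), a flavin monooxygenase that oxidizes sulfur- and nitrogen-containing compounds. It stood at 129 and 154 in sham SFA, 183 and 208 in TAC SFA, 331 and 264 in sham SFA-EAA and 174 and 162 in TAC SFA-EAA. Sham SFA-EAA was the highest group and sham SFA the lowest, so TAC lay below sham under SFA-EAA (-0.81, limma adjusted p = 0.290) and above it under SFA (0.47, limma adjusted p = 0.25), without overlap in either diet. Prdx1 had -0.43 under SFA-EAA, and its values were 1731 and 1725 in sham SFA, 1614 and 1419.6 in TAC SFA, 2624 and 2283 in sham SFA-EAA and 1564 and 2104 in TAC SFA-EAA. Its sham SFA-EAA libraries were the highest of all 8. Of the same family, Fmo1 stood at 148 and 141 in sham SFA, 139 and 153 in TAC SFA, 194 and 187 in sham SFA-EAA and 161 and 161 in TAC SFA-EAA. It was highest in the sham SFA-EAA libraries, with -0.24 under SFA-EAA and 0.02 under SFA, and Fmo5 had 0.14 and 0.21. No gene of the 6 further redox lists passed under SFA-EAA.

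Averaged over both diets, Nox4 rose and Gstk1 and Gstm1 fell after TAC. That is 1 of 45 genes higher and 2 lower, against 1.38% and 0.73% of all genes. The log2 fold changes were 2.12 for Nox4 (limma adjusted p = 0.0291), -0.69 for Gstk1 (adjusted p = 0.00764) and -0.52 for Gstm1 (adjusted p = 0.0448). All 4 TAC libraries lay below all 4 sham libraries for 4 of the 7 transferases and for 5 of the 45 genes, against 2.75% of all genes. After GC correction 2 of the 45 rose and 6 fell, against 3.2% and 2.98% of all genes: beside the 3 above, Gsta4 (-0.37, limma adjusted p = 0.0155), Gstm2 (-0.30, adjusted p = 0.0331), Prdx1 (-0.27, adjusted p = 0.0294) and Prdx5 (-0.32, adjusted p = 0.0382) fell, and Gpx1 rose (0.41, adjusted p = 0.0281). Outside the list, Gstm7 (-0.69), Gstt1 (-1.04) and Maob (-0.71) fell (limma adjusted p = 0.00908, 0.0285 and 0.00997). Mafk, a small MAF protein that pairs with NRF2 on DNA, rose (0.68, limma adjusted p = 0.0414), at 193 and 189.8 in sham SFA, 316 and 393 in TAC SFA, 154 and 132 in sham SFA-EAA and 238 and 168 in TAC SFA-EAA. The calls of Nox4, Gstk1 and Gstm1 were lost without either sham SFA library, sham SFA-EAA replicate 1 or TAC SFA replicate 2, those of Nox4 and Gstm1 also without sham SFA-EAA replicate 2, and that of Gstm1 without TAC SFA replicate 1. Without a filter beyond a value above 0 Nox4 and Gstm1 were lost (limma adjusted p = 0.0915 and 0.107), and Gstm1 also with a pseudocount of 0.25 (0.0515).

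In unloaded hearts the SFA-EAA diet was compared with SFA. None of the 45 genes passed (limma), nor did any of the 16432 (0%). At an unadjusted p under 0.05, 5 of the 45 were higher and 2 lower, against 6.12% and 8.71% of all genes. The diet groups did not overlap for 16 genes that were higher and 14 that were lower, close to the background of 27.6% in each direction. All 3 superoxide dismutases lay lower under SFA-EAA without overlap, with a median of -0.26 as deposited and -0.35 after GC correction. The 3 flavin monooxygenases lay higher as deposited (median 0.40), but after GC correction their median was 0.15, Fmo1 went from 0.40 to 0.15 and Fmo5 from 0.19 to -0.00492. The smallest p-values belonged to Fmo2 (1.06), Sod3 (-0.86), Prdx1 (0.50) and Gpx1 (-0.78), with limma adjusted p between 0.267 and 0.273. The differences were related to base composition. Across the 45 genes the log2 fold change was lower at higher GC content (Pearson r -0.68, Spearman rho -0.68), and rho was -0.51 across 16394 genes. Genes are not independent replicates, and they share the libraries. Cyba, at 59.3% GC, had -0.87 as deposited and -0.26 after GC correction. Fmo2, at 43.6% GC, had 1.06 and 0.86, and Sod3, at 52.7%, had -0.86 and -0.71. Prdx1, at 42.3%, had 0.50 and 0.25, and Gpx1, at 57.2%, -0.78 and -0.35.

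**Figure D4:**
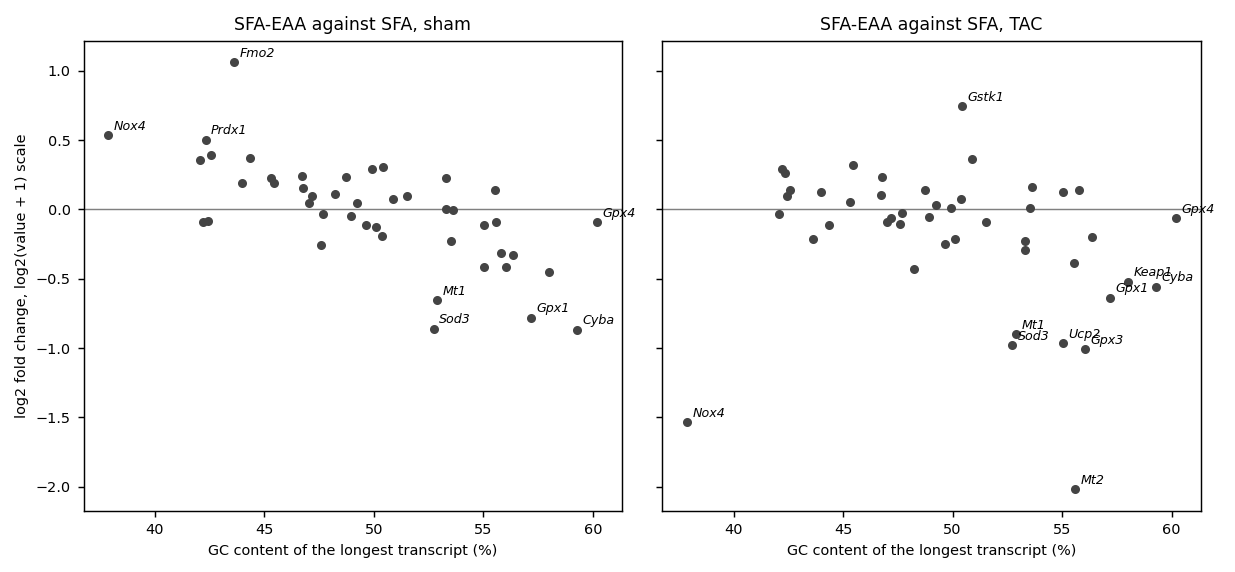
Log2 fold change of SFA-EAA against SFA (vertical axis, log2(value + 1) scale) against the GC content of each gene's longest transcript in percent (horizontal axis) for the 45 genes, in sham (left) and after TAC (right). Points descend from left to right, with Pearson r -0.68 in sham and -0.27 after TAC, and the largest differences are named.

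The diets were then compared in pressure-overloaded hearts. None of the 45 genes passed (limma), against 0.0487% of all genes. At an unadjusted p under 0.05, 3 were higher under SFA-EAA and 6 lower, against 6.74% and 8.33%, and 6 were higher and 10 lower without overlap, against 21.7% and 21.1%. After GC correction 1 was called higher and 1 lower, against 0.958% and 0.75%. Gstk1 was 1.68-fold higher under SFA-EAA (limma adjusted p = 0.0710 as deposited, and 0.00834 after GC correction). Sod3 was 1.97-fold lower (limma adjusted p = 0.127, and 0.0306 after GC correction). Ucp2 had -0.96, Gpx3 -1.01, Mt2 -2.02 and Nox4 -1.53, all lower under SFA-EAA without passing (limma adjusted p = 0.131, 0.157, 0.163 and 0.244). After GC correction they had -0.76, -0.74, -1.78 and -1.83, again without passing. These 4 genes had positive log2 fold changes of TAC against sham under SFA, where only Nox4 passed and the Ucp2 libraries overlapped. Both comparisons use the TAC SFA libraries, so the opposite signs are not independent of each other. Without TAC SFA-EAA replicate 1, in which GC-rich genes stood high as in the SFA libraries, 3 of the 45 genes were called higher and 12 lower, in a fit that called 732 and 1396 of all genes.

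Averaged over sham and TAC, Sod3 was lower and Gstk1 higher under the SFA-EAA diet. Thus 1 of 45 genes was higher and 1 lower, against 0.487% and 0.724% of all genes. Sod3 (ENSMUSG00000072941, chromosome 5, 52363791 to 52371418) had a log2 fold change of -0.92 (SE 0.16, limma adjusted p = 0.0471), and its 4 SFA-EAA libraries, from 97.6 to 164, lay below the 4 SFA libraries, from 176 to 297. Of the 10 fibroblast markers, 3 were also lower under SFA-EAA in this comparison, against 0.724% of all genes. The summed level of the markers followed Sod3 only in part. It overlapped between the diets in sham, and TAC SFA-EAA replicate 2 (7224) lay above both sham SFA libraries (6405 and 5413). The part of these markers in the Sod3 result was not tested. Gstk1 had 0.52 (SE 0.09, limma adjusted p = 0.0472), with SFA-EAA above SFA in each operation but sham SFA above TAC SFA-EAA. Both p-values lay just under the threshold, and both genes also passed after GC correction (-0.79 and 0.56, limma adjusted p = 0.00817 and 0.00616), when 2 of the 45 were called higher and 1 lower, against 1.63% and 1.06% of all genes. Both calls were lost with a pseudocount of 0.25 (limma adjusted p = 0.0546 for Sod3 and 0.0544 for Gstk1), with quantile normalization (0.0571 for both), without a filter beyond a value above 0 (0.0946 and 0.0920), and without any 1 of the 6 libraries other than those of TAC SFA-EAA. Ucp2 had -0.69 (limma adjusted p = 0.0666) as deposited and -0.45 (adjusted p = 0.121) after GC correction, and Gpx3 -0.71 (adjusted p = 0.0830) and -0.41 (adjusted p = 0.126). Gpx1 (-0.71 as deposited, -0.32 after GC correction) and Keap1 (-0.49 and -0.04) did not pass either way.

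Gpx4 changed sign with the correction for base composition. It was -0.08 for the averaged diet effect as deposited (limma adjusted p = 0.642) and 0.53 after GC correction (adjusted p = 0.0345), with a GC content of 60.2%, the highest of the 45 genes. Its values as deposited were 2309.8 and 2467 in sham SFA, 2042 and 1913 in TAC SFA, 2227 and 2251 in sham SFA-EAA and 2108 and 1699.8 in TAC SFA-EAA. Outside the list, Maob was higher under SFA-EAA (0.59, limma adjusted p = 0.0431).

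Whether the effect of TAC differed between the diets was tested as an interaction. None of the 45 genes passed (limma), nor did any other gene (0%), and 2 of the 45 had a more positive and 3 a more negative TAC effect under SFA-EAA at an unadjusted p under 0.05, against 2.56% and 2.93% of all genes. Fmo2 had the smallest p-value, with a difference of -1.28 on the log2 scale (SE 0.23, limma adjusted p = 0.698). Nox4 followed with -2.07 (95% interval -3.80 to -0.34), Mt2 with -1.93 (-3.66 to -0.20), Gstk1 with 0.44 (0.03 to 0.85) and Sod2 with 0.38 (0.03 to 0.74). The rise of Nox4 and the fall of Gstk1 passed under SFA and not under SFA-EAA, but that the diets differ in either effect is not shown.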

How the data were processed

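The submitters' processing notes name STAR 2.5, edgeR and the build GRCm38. Which counter, annotation release and strand setting were used is not given in the sources used here. The signal the authors deposited per gene is a normalized count: it is not whole and has no fixed total per library, so no test for whole counts was run. Of the 45 genes, 5 overlap another gene with a mean of at least 5 on the opposite strand (Prdx2, Prdx5, Txnrd2, Gss and Hmox2), whose reads may have been exchanged.

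Log2(value + 1) was tested by limma-trend (version 3.58.1 in R 4.3.3) over the 16432 genes that reached 1 in 2 or more libraries. Each group had its own mean, and all 4 shared 1 estimate of the spread. Two-sided p-values were adjusted by Benjamini-Hochberg over all genes within each of 7 comparisons, with a threshold of 0.05. With the pseudocount of 1, log2 fold changes on the log2(value + 1) scale understate the change of low genes. On data simulated for TAC against sham under SFA (15795 genes, 50 changed per fold size), it recovered 3, 18, 48 and 49 genes changed by 1.5-fold, 2-fold, 4-fold and 8-fold, with 2 false calls. For the GC correction, each library's deviations from the gene means were smoothed against GC content (longest GENCODE M21 transcript, known for 99.8% of genes) by loess with a span of 0.3, and the curve was subtracted. Promoters are from RefSeq (GRCm38.p6), which held 38 of the 45 genes, and coordinates of genes are those deposited. The genes and lists were chosen with earlier results of these data known. Values in every library are given for those of the 45 genes that were called, the 4 with the smallest p-values per comparison and a fixed panel, and for called genes of the further redox lists; single further genes were named after their values were seen. Figures were drawn with Python 3.11.15 and matplotlib 3.10.9.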

Additional observations from a re-analysis of the deposited data

Results flagged for a closer look

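For 5 of the 45 genes the libraries of a contrast did not overlap in either setting, with opposite directions between the settings. How many of all genes do so was not counted, so the 5 genes are not shown to exceed the share among all genes. In a single direction, 18% to 27.6% of all genes had no overlap in these contrasts. Some gaps were small: Gclm reached 104.7 in sham SFA and started at 104.9 in TAC SFA. Gss reached 81.7 in sham SFA and started at 82.1 in sham SFA-EAA. The interaction test, which covers the same difference, did not pass for any of the 5 genes. Fmo2 had log2 fold changes of TAC against sham of 0.47 under SFA and -0.81 under SFA-EAA, and of SFA-EAA against SFA of 1.06 in sham and -0.22 after TAC (interaction, limma adjusted p = 0.698). Nox4 was 0.54 for the diet in sham and -1.53 after TAC (interaction adjusted p = 0.878). Sod2 was -0.0926 and 0.29 for the same contrasts (limma interaction adjusted p = 0.878), and Gss 0.11 and -0.43 (adjusted p = 0.909). Gclm was 0.13 for TAC under SFA and -0.26 under SFA-EAA (limma interaction adjusted p = 0.907). After GC correction the diet values were 0.13 and -1.83 for Nox4, -0.35 and 0.10 for Sod2, 0.08 and -0.48 for Gss, and 0.86 and -0.37 for Fmo2, in sham and after TAC.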

How the results depend on the processing

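Counts of the 45 genes called higher and lower (limma) moved with several settings. With a pseudocount of 0.25 Gstm1 was lost from the averaged TAC comparison, leaving 1 lower, and the averaged diet comparison had 0 and 0. Without a filter beyond a value above 0, TAC under SFA had 0 higher and 1 lower, averaged TAC 0 and 1, and the averaged diet comparison 0 and 0, in fits that test more genes. With a mean of at least 5, the diet after TAC had 1 higher (Gstk1) and averaged diet 2 lower. Quantile normalization left 0 and 0 for averaged diet, and median-of-ratios scaling gave the counts of the deposited values. GC correction gave 3 and 3 for TAC under SFA, 2 and 6 for averaged TAC, 1 and 1 for the diet after TAC, and 2 and 1 for averaged diet, where Gpx4 turned from -0.08 to 0.53 on the log2 scale. Library weights gave 2 and 3 for TAC under SFA, 2 and 2 for the diet in sham, and 2 lower for averaged diet. Fits to only the 4 libraries compared gave 2 and 5 for TAC under SFA and 2 and 3 for the diet in sham. Calls over all genes moved too. For TAC under SFA they reached 420 higher and 406 lower among the alternatives with no single library left out. On the deposited values they were 137 and 68. For the diet in sham they reached 317 and 653, against 0 and 0 on the deposited values. Without both libraries high in Myl7, an alternative chosen after seeing the data, all counts were 0; with fewer libraries the test also has fewer degrees of freedom.

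Leaving out each library in turn, the higher and lower counts ranged from 0 to 2 and 0 to 4 for TAC under SFA, 0 to 1 and 0 to 1 for TAC under SFA-EAA, 0 to 2 and 0 to 4 for the diet in sham, 0 to 3 and 0 to 12 for the diet after TAC, 0 to 3 and 0 to 9 for averaged TAC, 0 to 5 and 0 to 10 for averaged diet, and stayed at 0 for the interaction. The higher ends came from leaving out a TAC SFA-EAA library, and where that leaves 1 library in a group it is assumed to vary as the other groups do. A replicate block gave 0 higher and 1 lower for TAC under SFA, 0 and 1 for averaged TAC and 0 and 0 for averaged diet, and with GC correction as well 2 and 2, 2 and 4, and 1 higher for the diet after TAC. Libraries with the same replicate number did not deviate together over all genes tested (correlations from -0.100 to 0.0125). The labels do not say whether the number is a pairing, and these correlations do not settle it. A crossed pairing of the TAC libraries, also chosen after seeing the data, gave 0 and 0 for the diet after TAC. Of 5895 values of single genes under an alternative, 5435 kept their direction and side of the threshold, 301 uncalled values changed sign, 100 came to pass, 58 no longer passed and 1 reversed. With 2 libraries per group, fold changes near 1.5 were mostly missed on simulated data, and genes at a few normalized counts, such as Nox4 in sham, rest on few reads. The causes of these shifts were not tested.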
